A study of Mus musculus with 11 samples.

Results

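The genes of 10 receptors for gut peptides, transmitters and metabolic hormones were followed in sorted cells of the mouse duodenum. They were Glp1r, Gipr, Cckar, Cckbr, Galr1, Cnr1, Htr1d, Adra2a, Insr and Lepr, taken by symbol from a table of 38283 Ensembl genes, and all 10 were found in it. Duodenal epithelium of mice kept on standard chow was digested to single cells and sorted by fluorescence, and RNA of positive cells and of a similar number of negative cells was sequenced. The groups were NeuroD1 positive and NeuroD1 negative cells of the strain Neurod1-cre-eYFP (3 libraries each), and Glu positive (3 libraries) and Glu negative cells (2 libraries) of the strain GluVenus. In the first strain a Cre recombinase driven by Neurod1 switches on a yellow fluorescent protein, so that cells whose precursors expressed the gene are marked too. In the second the fluorescent protein Venus reports the proglucagon gene. Age and sex of the mice are not given in the labels, nor whether each library number stands for an animal of its own. The spread behind every p-value is therefore that among these libraries, which may be technical.

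Enteroendocrine cells are the hormone cells of the gut lining, and they carry receptors through which hormones, nerves and nutrients adjust their secretion. Most of the receptors here couple to G proteins. The receptors for glucagon-like peptide and for gastric inhibitory peptide raise cyclic AMP, and the cholecystokinin receptors mainly act through calcium. Galr1, Cnr1, Htr1d and Adra2a act through inhibitory G proteins, which lower cyclic AMP and, in many nerve and endocrine cells, restrain release. Insr, the insulin receptor, is a tyrosine kinase, and Lepr, the leptin receptor, belongs to the cytokine receptors that signal through JAK and STAT proteins.

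Windows around the transcription start are printed for Glp1r, Cnr1 and Htr1d. These genes were called higher in cells sorted for Neurod1 or for proglucagon, and NEUROD1 is a factor that binds E-boxes. Galr1 was called higher too, but no window was used for it. The windows are from RefSeq on GRCm38.p6, each on the plus strand, and run from 250 bases before to 50 bases after the start nearest to the annotated gene start. They are chr17:30901617-30901916 for Glp1r, chr4:33924394-33924693 for Cnr1 and chr4:136423274-136423573 for Htr1d. Capitals mark every E-box of the general form CANNTG, which reads the same form on both strands.
Glp1r: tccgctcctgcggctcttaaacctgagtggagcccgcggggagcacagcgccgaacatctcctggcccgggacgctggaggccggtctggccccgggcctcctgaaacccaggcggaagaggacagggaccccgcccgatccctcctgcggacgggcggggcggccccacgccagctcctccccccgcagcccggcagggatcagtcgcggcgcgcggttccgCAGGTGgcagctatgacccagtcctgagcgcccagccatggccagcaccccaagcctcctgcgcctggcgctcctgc
Cnr1: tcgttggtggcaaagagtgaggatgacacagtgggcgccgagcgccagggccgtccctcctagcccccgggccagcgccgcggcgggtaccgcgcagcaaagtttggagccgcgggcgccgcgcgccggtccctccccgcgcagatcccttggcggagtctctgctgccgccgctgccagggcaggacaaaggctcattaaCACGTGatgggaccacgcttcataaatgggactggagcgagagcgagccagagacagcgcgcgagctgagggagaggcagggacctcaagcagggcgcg
Htr1d: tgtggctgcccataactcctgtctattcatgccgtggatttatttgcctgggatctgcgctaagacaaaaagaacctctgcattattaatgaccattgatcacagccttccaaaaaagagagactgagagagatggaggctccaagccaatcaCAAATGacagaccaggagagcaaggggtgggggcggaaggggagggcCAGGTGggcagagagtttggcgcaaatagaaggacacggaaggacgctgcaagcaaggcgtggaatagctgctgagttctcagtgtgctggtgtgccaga
The Glp1r and Cnr1 windows each held 1 such E-box and the Htr1d window held 2. The general form occurred in 72.3% of 32851 windows of 300 bases in the RefSeq table. Windows were used for 6 of the 10 receptors, 10 windows in all, and none of these held CAGATG or its reverse complement, which occurred in 17.2% of all windows, or CAGCTG, which occurred in 16.3%. The match describes letters in these windows and was not set against any binding data.

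Libraries held 2279595 to 5722381 counts. Values below are in CPM, counts scaled to library size and, by the trimmed mean of M values (TMM), to library composition, and folds are log2 fold changes ± SE. Tests are edgeR's quasi-likelihood tests, with Benjamini-Hochberg adjustment over the 14332 genes that had enough counts, and the threshold for a call was an adjusted p of 0.05. As a check of the sort, all 8 enteroendocrine markers listed passed as higher in NeuroD1 positive and in Glu positive cells over their negatives, and the sums of these markers did not overlap between positive and negative cells in either strain. Neurod1 ranged over 394 to 540 CPM in NeuroD1 positive, 35.6 to 49.8 CPM in NeuroD1 negative, 253 to 737 CPM in Glu positive and 15.1 to 29.2 CPM in Glu negative cells. Enterocyte markers were present in every group, summing to 2910 to 3700 CPM in NeuroD1 positive, 4590 to 13600 CPM in NeuroD1 negative, 3870 to 4700 CPM in Glu positive and 3310 to 4130 CPM in Glu negative cells. The sums in Glu positive cells were mostly Sis (2590 to 3580 CPM), and by gene 7 of the 8 markers were called lower in NeuroD1 positive cells, and 4 lower and 1 higher in Glu positive cells. In NeuroD1 positive cells 6 of 6 Paneth markers were called lower, and of 6 goblet markers 4 were lower and 1 higher. In Glu positive cells 0 of 6 Paneth markers were called, and of 6 goblet markers 1 was lower and 0 higher. Goblet markers summed to 824 to 1110 CPM in NeuroD1 positive and 1200 to 2710 CPM in Glu positive cells. Over all genes tested, 6.57% were called higher and 7.61% lower in NeuroD1 positive cells, and 4.22% and 2.41% in Glu positive cells. RNA of immune cell markers was found in all 4 groups. The 8 T cell markers summed to 17.9 to 57.6 CPM in NeuroD1 positive, 301 to 450 CPM in NeuroD1 negative, 291 to 1870 CPM in Glu positive and 1000 to 1130 CPM in Glu negative cells. The highest sum, in Glu_positive_5254, came from Cd4, Cd3e and Trac, while the other 5 markers were lower there than in both Glu negative libraries. Values that are not whole numbers occur 2433 times in the 6 NeuroD1 columns and 3 times in the 5 Glu columns, so the 2 strains' counts may not have been made in the same way, and this cannot be told apart from the strain in any comparison between strains.

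**Figure D1:**
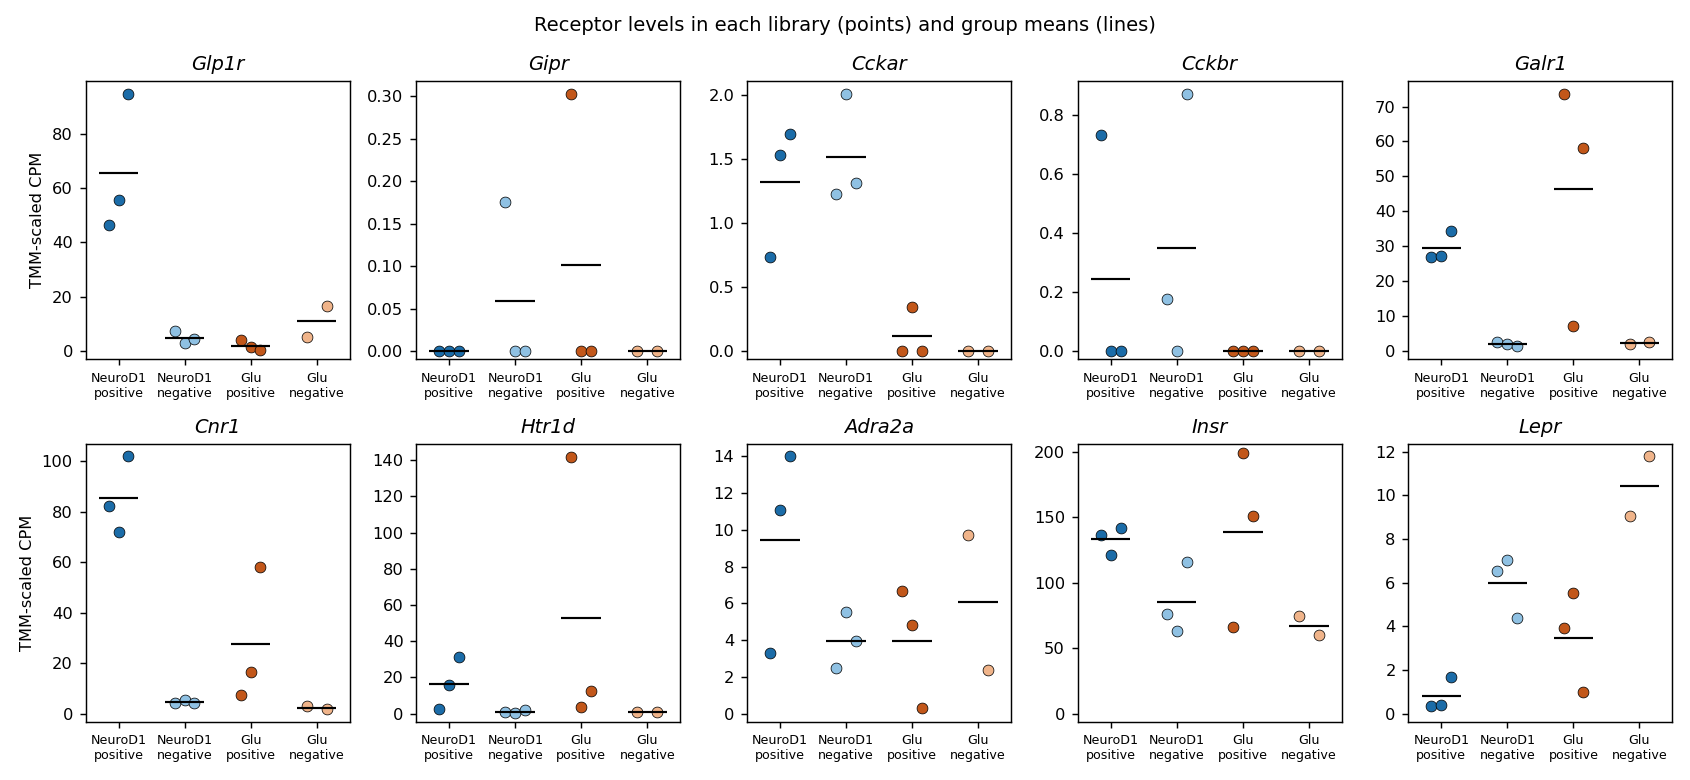
Level of each of the 10 receptors in TMM-scaled CPM (y axis, linear, a scale of its own for each gene) in the 11 libraries, with positive cells left of negative cells in each strain. Points are libraries and lines are group means. The 3 NeuroD1 positive libraries have the highest Glp1r, while Galr1, Cnr1 and Htr1d are high in the positive cells of both strains.

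Among the receptors for peptides, Glp1r (ENSMUSG00000024027, chromosome 17, 30901817 to 30940791 on GRCm38), whose product is activated by glucagon-like peptide 1, had 46.3, 55.7 and 94.7 CPM in the 3 NeuroD1 positive libraries, against 7.23, 3.01 and 4.37 CPM in the NeuroD1 negative ones. In the other strain it had 3.94, 1.38 and 0.285 CPM in Glu positive cells, against 5.31 and 16.7 CPM in Glu negative cells. The NeuroD1 positive libraries lay above every other library, and in the GluVenus strain both negative libraries lay above all 3 positive ones. The ligand is cut from proglucagon, whose gene Gcg had 10400 to 12200 CPM in NeuroD1 positive, 575 to 767 CPM in NeuroD1 negative, 20200 to 61000 CPM in Glu positive and 2270 to 3170 CPM in Glu negative cells.

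In NeuroD1 positive cells Glp1r rose by 3.70 ± 0.73 over NeuroD1 negative cells (adjusted p = 0.00198 in edgeR). The call held in all 20 alternatives run, which gave 3.31 to 4.13. Between the positive populations it was higher in NeuroD1 positive than in Glu positive cells by 5.21 ± 0.80 (adjusted p = 0.000633 in edgeR), and all 19 alternatives kept that call, with 4.60 to 6.53. In Glu positive against Glu negative cells the value was -2.64 ± 0.79, which just missed the threshold (adjusted p = 0.0516 in edgeR). It passed in 6 of 20 alternatives, among them DESeq2 (-2.62, adjusted p = 0.0146). That value was -1.60 with adjusted p = 0.46 without Glu_negative_4665 and -3.96 with adjusted p = 0.00567 without Glu_positive_5254. In bulk samples, fewer cells that carry a receptor and less of its RNA per cell cannot be told apart.

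The 2 strains differed in this gene when the difference itself was tested. The NeuroD1 contrast exceeded the Glu contrast by 6.35 ± 1.07 (adjusted p = 0.0137 in edgeR), where 0.0907% of all genes tested were called as larger in the NeuroD1 strain and 0.0209% as larger in the Glu strain. That balance of 13 against 3 genes turned round in DESeq2 (62 against 114) and without a filter (78 against 260). In edgeR none of the other 6 receptors tested passed, the nearest by unadjusted p being Adra2a at 1.93 ± 1.37 (adjusted p = 0.636). The call for Glp1r was lost without NeuroD1_positive_6362 (5.97, adjusted p = 0.0662), without NeuroD1_negative_6362 (6.26, adjusted p = 0.0642), without Glu_negative_4665 (5.31, adjusted p = 0.116) and with a replicate block (6.44, adjusted p = 0.0897), all in edgeR. Immune cell markers moved as well. Of the 8 T cell markers, 8 were called lower in NeuroD1 positive than in NeuroD1 negative cells and 2 lower in Glu positive than in Glu negative cells. The shares called lower over all genes tested were 7.61% and 2.41%. The B and plasma cell markers summed to 90200 CPM in Glu_negative_4665 and to 12700 CPM in Glu_negative_5254. The first was the library with the most Glp1r of that strain's 5, and most of its sum was Igha (620338 counts). The T cell and myeloid sums were lower in Glu_negative_4665 (1000 and 95.8 CPM) than in Glu_negative_5254 (1130 and 135 CPM). NeuroD1_negative_6361 had the highest B and plasma cell sum of its group (37900 CPM) and the lowest Glp1r (3.01 CPM). The part of immune cells in the Glp1r counts of the Glu negative libraries was not tested.

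Gipr (ENSMUSG00000030406, chromosome 7, 19156061 to 19166127), the receptor for gastric inhibitory peptide, was at the limit of detection. It had 0 counts in the 3 NeuroD1 positive libraries, 1 count in NeuroD1_negative_6360, 1 count in Glu_positive_5254 and none elsewhere. The floor of 3 counts over a group corresponds to 0.298 CPM in NeuroD1 positive, 0.301 CPM in NeuroD1 negative, 0.227 CPM in Glu positive and 0.257 CPM in Glu negative cells, so every group lay under its floor and no fold is given. Its ligand gene Gip stood at 8810 to 19500 CPM in NeuroD1 positive and 205 to 262 CPM in NeuroD1 negative cells.

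The receptors for cholecystokinin were scarce as well. Cckar (ENSMUSG00000029193, chromosome 5, 53697776 to 53707705), which prefers cholecystokinin over gastrin, had 0.734, 1.53 and 1.70 CPM in NeuroD1 positive cells, against 1.23, 2.01 and 1.31 CPM in NeuroD1 negative cells. These are 14 counts in each group, a ratio of 0.989 with an exact (Clopper-Pearson) 95% interval of 0.437 to 2.24 that covers counting error only. In the GluVenus strain there was 1 count, in Glu_positive_5160, over the 3 positive libraries and none over the 2 negative ones. Cckar was found in both gates of the first strain and was at or under the floor in both gates of the other. The ratio of NeuroD1 positive to Glu positive cells was 18.4 with an interval of 2.8 to 778, and NeuroD1 negative cells were at least 5.47-fold higher than Glu negative cells against the floor of 3 counts over the group. Without a filter on low counts edgeR gave 3.49 for the positives (adjusted p = 0.243) and 5.63 for the negatives (adjusted p = 0.319), so neither passed.

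Cckbr (ENSMUSG00000030898, chromosome 7, 105425731 to 105470898), which binds gastrin and cholecystokinin alike, had 2 counts over NeuroD1 positive, 3 over NeuroD1 negative and 0 over Glu positive and Glu negative cells, all at or under the floor. The ligand side was large beside these receptors. Cck reached 34200 to 74100 CPM in NeuroD1 positive against 571 to 766 CPM in NeuroD1 negative cells, and 17200 to 32100 CPM in Glu positive against 767 to 995 CPM in Glu negative cells. Gast, the gastrin gene, had 694 to 1260 CPM in NeuroD1 positive and 1060 to 1320 CPM in NeuroD1 negative cells, but 0.285 to 4.55 CPM in Glu positive and 0 and 0.14 CPM in Glu negative cells. Gast, like Cckar, was therefore found at like levels in both NeuroD1 gates and at or near 0 in the Glu gates. Gast was higher in NeuroD1 positive than in Glu positive cells by 9.31 ± 0.69 (adjusted p = 7.58e-08 in edgeR), and between the negatives its ratio was 13600 on 1 count in Glu negative cells, with an exact 95% counting interval of 2450 to 539000.

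Galr1 (ENSMUSG00000024553, on chromosome 18), an inhibitory receptor for the neuropeptide galanin, was found in the positive cells of both strains. It had 26.8, 27.1 and 34.5 CPM in NeuroD1 positive cells, against 2.47, 2.01 and 1.31 CPM in NeuroD1 negative cells. In the other strain it had 73.7 CPM in Glu_positive_5254, 7.23 CPM in Glu_positive_5160 and 58.1 CPM in Glu_positive_4665, against 1.99 and 2.52 CPM in Glu negative cells. The groups did not overlap in either strain, and Glu_positive_5160 lay nearer to the negative libraries than the others of its group did. Galr1 rose by 3.87 ± 0.73 in NeuroD1 positive cells (adjusted p = 0.00133 in edgeR) and by 4.34 ± 0.85 in Glu positive cells (adjusted p = 0.00481 in edgeR). The first call held in all 20 alternatives, while the second was lost without Glu_negative_5254 (4.21, adjusted p = 0.085) and without Glu_negative_4665 (4.55, adjusted p = 0.0802). The 2 contrasts differed by -0.47 ± 1.02 (adjusted p = 0.911 in edgeR). The gene of its ligand, Gal, had at most 6 counts in any library.

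Among the receptors for transmitters, Cnr1 (ENSMUSG00000044288, chromosome 4, 33924593 to 33948831), the cannabinoid receptor of nerve endings, had the highest mean level per length in NeuroD1 positive cells. It had 82.3, 72.1 and 102 CPM in NeuroD1 positive cells, against 4.41, 5.52 and 4.37 CPM in NeuroD1 negative cells. The GluVenus strain had 7.58 CPM in Glu_positive_5254, 16.5 CPM in Glu_positive_5160 and 58.3 CPM in Glu_positive_4665, against 3.10 and 1.68 CPM in Glu negative cells. Positive and negative libraries did not overlap in either strain, and Glu_positive_4665 was the highest of its group. Cnr1 rose by 4.17 ± 0.66 in NeuroD1 positive cells (adjusted p = 0.000284 in edgeR), which held in all 20 alternatives, and by 3.55 ± 0.77 in Glu positive cells (adjusted p = 0.00907 in edgeR). The second value was 2.35 and still passed without Glu_positive_4665, and the call was lost without Glu_negative_5254 (4.08, adjusted p = 0.0748), without Glu_negative_4665 (3.21, adjusted p = 0.161) and in a fit on the Glu libraries alone (3.49, adjusted p = 0.0878).

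NeuroD1 positive cells had more Cnr1 than Glu positive cells by 1.62 ± 0.58, which did not pass (adjusted p = 0.0896 in edgeR). It passed without Glu_positive_4665 (2.83, adjusted p = 0.00299), and DESeq2 (1.64, adjusted p = 0.0415), limma voom (1.89, adjusted p = 0.0475) and the fit without a filter (1.57, adjusted p = 0.0403) also put it past the threshold.

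Htr1d (ENSMUSG00000070687, chromosome 4, 136423524 to 136444398), an inhibitory serotonin receptor, varied widely among the positive libraries. It had 2.57 CPM in NeuroD1_positive_6360, 15.6 CPM in NeuroD1_positive_6361 and 31.4 CPM in NeuroD1_positive_6362, against 0.705, 0.502 and 1.75 CPM in NeuroD1 negative cells. The GluVenus strain had 142 CPM in Glu_positive_5254, 3.44 CPM in Glu_positive_5160 and 12.5 CPM in Glu_positive_4665, against 1.11 and 0.840 CPM in Glu negative cells. The groups did not overlap, but the lowest positive library of each strain stood close to the negatives. Htr1d rose by 4.09 ± 1.19 in NeuroD1 positive cells (adjusted p = 0.0261 in edgeR) and by 5.73 ± 1.41 in Glu positive cells (adjusted p = 0.0208 in edgeR).

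Neither Htr1d call held with every library left out in turn. The fold was lowest without NeuroD1_positive_6362 in the NeuroD1 strain and without Glu_positive_5254 in the GluVenus strain. In the NeuroD1 strain the call was lost without NeuroD1_positive_6362 (3.22, adjusted p = 0.116), NeuroD1_negative_6360 (3.82, adjusted p = 0.116), NeuroD1_negative_6361 (3.87, adjusted p = 0.0822) or NeuroD1_negative_6362 (4.65, adjusted p = 0.0547) in edgeR, and in limma voom (3.60, adjusted p = 0.171). In the GluVenus strain it was lost without Glu_positive_5254 (3.04, adjusted p = 0.0937), Glu_negative_5254 (5.88, adjusted p = 0.161) or Glu_negative_4665 (5.50, adjusted p = 0.199) in edgeR, and in limma voom (4.13, adjusted p = 0.132). Glu_positive_5254 also had the highest T cell sum of the 11 libraries, 1870 CPM, of which Cd4 gave 923, Cd3e 544 and Trac 262 CPM. Cd8a went the other way, with 11.2 CPM in that library against 94.2 and 122 CPM in the Glu negative ones, as did Gzma, Nkg7, Cd3d and Cd3g. The library had 475 CPM of Socs3, an inhibitor of cytokine signalling, which had 10.3 and 7.83 CPM in the other Glu positive libraries. The part of T cells in the Htr1d level of that library was not tested.

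Adra2a (ENSMUSG00000033717, chromosome 19, 54044151 to 54048982), an inhibitory adrenergic receptor, had 3.31, 11.1 and 14.0 CPM in NeuroD1 positive cells, against 2.47, 5.52 and 3.93 CPM in NeuroD1 negative cells. It had 6.67, 4.82 and 0.285 CPM in Glu positive cells, against 9.73 and 2.38 CPM in Glu negative cells. The groups overlapped in both strains. The differences of 1.28 ± 0.94 (adjusted p = 0.434 in edgeR) and -0.65 ± 1.01 (adjusted p = 0.749 in edgeR) did not pass, and the second was 0.63 without Glu_negative_5254.

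Insr (ENSMUSG00000005534, chromosome 8, 3122061 to 3279617) was found in every library. It had 136, 121 and 142 CPM in NeuroD1 positive cells, against 75.8, 63.3 and 116 CPM in NeuroD1 negative cells, and 65.8, 199 and 151 CPM in Glu positive cells, against 74.3 and 59.8 CPM in Glu negative cells. NeuroD1 positive libraries lay above all NeuroD1 negative ones, while Glu_positive_5254 lay between both Glu negative libraries. The differences of 0.64 ± 0.38 (adjusted p = 0.316 in edgeR) and 1.05 ± 0.44 (adjusted p = 0.16 in edgeR) did not pass. Without Glu_positive_5254 the second was 1.39 and passed (adjusted p = 0.0209).

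Lepr (ENSMUSG00000057722, chromosome 4, 101717404 to 101815352) was the 1 receptor of the set that had lower values in the positive cells of both strains. It had 0.367, 0.382 and 1.70 CPM in NeuroD1 positive cells, against 6.52, 7.03 and 4.37 CPM in NeuroD1 negative cells. It had 3.94, 5.51 and 0.997 CPM in Glu positive cells, against 9.07 and 11.8 CPM in Glu negative cells. The groups did not overlap in either strain, but neither difference passed. The first was -2.72 ± 0.90 (adjusted p = 0.0509 in edgeR) and the second was -1.61 ± 0.88 (adjusted p = 0.279 in edgeR). The first sat at the threshold, since 10 of 20 alternatives put it past, among them DESeq2 (-2.82, adjusted p = 0.0212), and without NeuroD1_positive_6362 it was -3.89 (adjusted p = 0.0435). Endothelial markers summed to 14.1 to 29.2 CPM in NeuroD1 positive, 29.7 to 115 CPM in NeuroD1 negative, 33.8 to 40.4 CPM in Glu positive and 54.1 to 57.5 CPM in Glu negative cells, and those of fibroblasts and smooth muscle summed to 31.2 to 94.9 CPM, 197 to 401 CPM, 62.2 to 338 CPM and 335 to 439 CPM, with groups ordered likewise. The part of these cells in the Lepr counts was not tested.

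**Figure D2:**
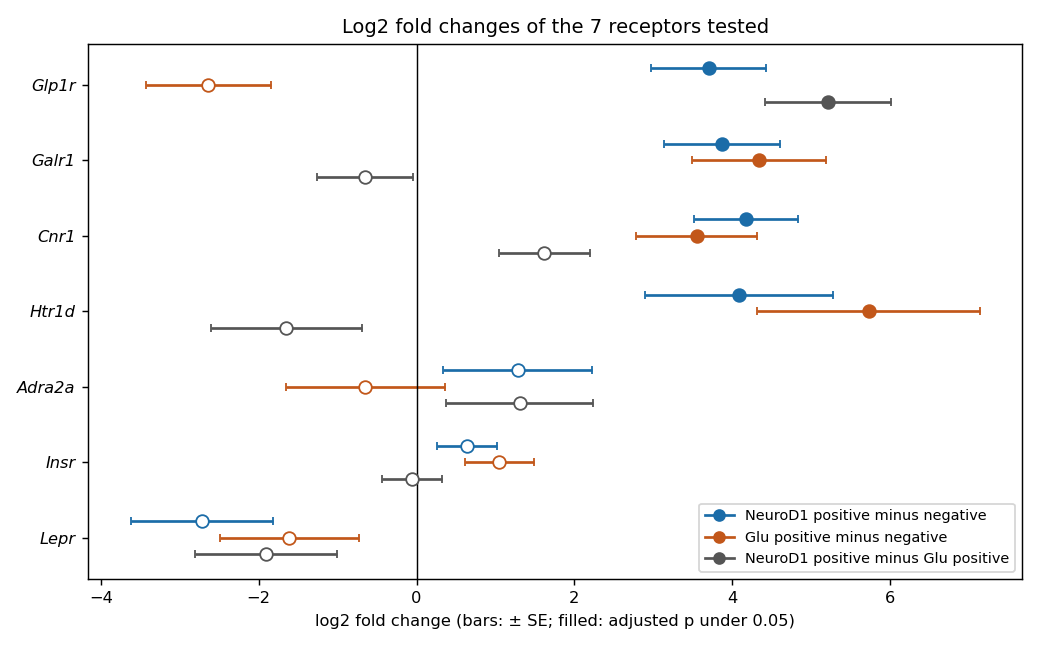
Log2 fold change (x axis) with its SE (bars) of the 7 receptors that had enough counts to be tested, in 3 comparisons, with filled points at an adjusted p under 0.05. Glp1r is at 3.70 in the NeuroD1 strain and -2.64 in the GluVenus strain, and Lepr is left of 0 in all 3 comparisons without passing in any.

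In counts, 7 of the 10 receptors had enough counts to be tested, and Gipr, Cckar and Cckbr did not. In NeuroD1 positive against NeuroD1 negative cells 4 of the 10 were called higher (Glp1r, Galr1, Cnr1, Htr1d) and 0 lower, where 6.57% of all genes tested were called higher and 7.61% lower. In Glu positive against Glu negative cells 3 of the 10 were called higher (Galr1, Cnr1, Htr1d) and 0 lower, against 4.22% and 2.41% of all genes tested. The count of 3 was 0 when either Glu negative library was left out, where the spread of the 1 negative library left is taken from the other groups. A receptor can pass the count filter through the group in which it is high, so the shares among tested receptors are not a measure of how often receptors change. In NeuroD1 positive against Glu positive cells 1 of the 10, Glp1r, was called higher and 0 lower, against 3.18% and 4.95% of all genes. Between NeuroD1 negative and Glu negative cells 0 of the 10 were called in edgeR, DESeq2 or limma voom, the shares called higher and lower over all genes being 0.363% and 0.126%, and 1296 genes but none of the 7 receptors had an unadjusted p under 0.05. The lowest of the 7 was 0.144, for Glp1r at -1.13 ± 0.74. These comparisons share libraries: the NeuroD1 positive libraries enter both the first and the third.

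**Figure D3:**
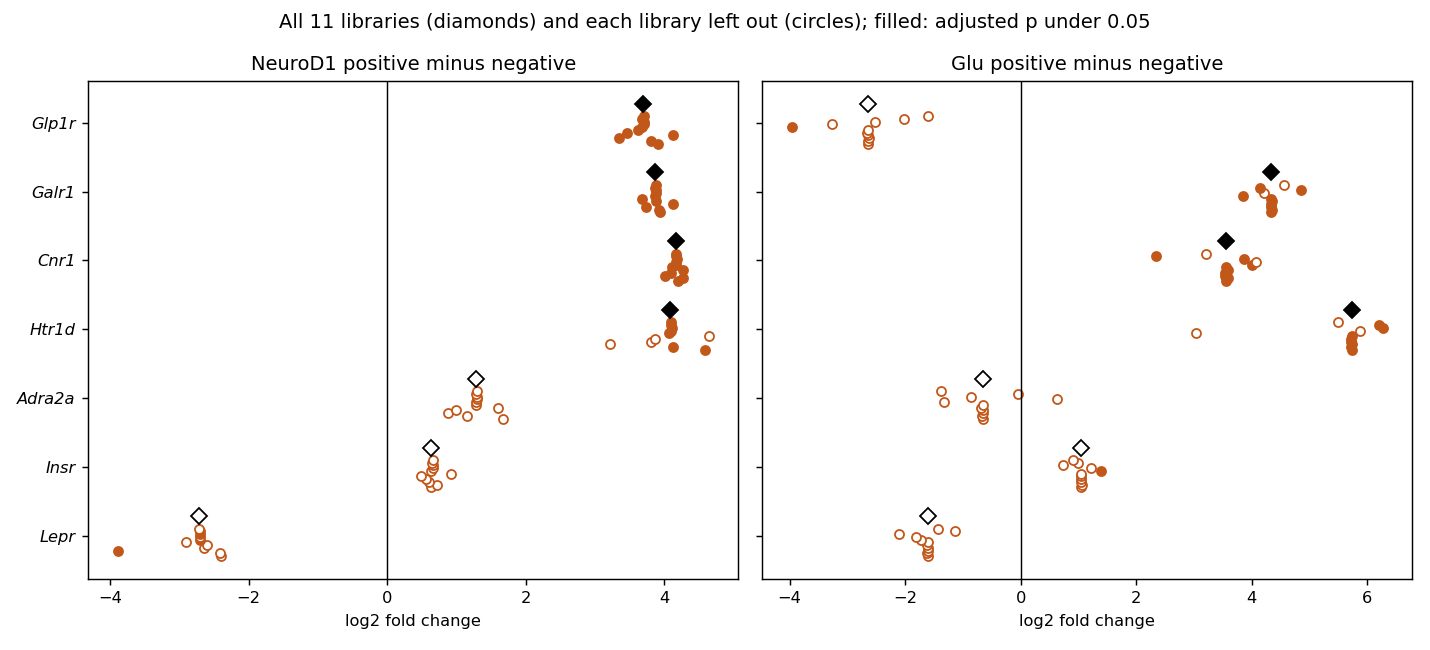
Log2 fold change (x axis) of the 7 tested receptors with all 11 libraries (diamonds) and with each library left out in turn (circles), for NeuroD1 positive minus negative cells and for Glu positive minus negative cells. Filled symbols have an adjusted p under 0.05. Cnr1 in the NeuroD1 strain stays within 4.02 to 4.28, while Htr1d in the GluVenus strain spans 3.04 to 6.27.

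Levels were compared between receptors as CPM per kilobase of exon, since longer transcripts give more counts. In NeuroD1 positive cells Cnr1 stood first at 13.3 ± 2.37 CPM per kilobase (SD, n = 3), followed by Glp1r at 11.3 ± 4.42, Galr1 at 9.87 ± 1.47, Insr at 9.67 ± 0.807 and Htr1d at 5.16 ± 4.50 CPM per kilobase. Each of these overlapped with its neighbour in the order. Receptors further apart did not always overlap, since Cnr1 at 11.2 to 15.9 CPM per kilobase lay wholly above Htr1d at 0.803 to 9.80 CPM per kilobase. Cnr1 also lay above Insr at 8.77 to 10.3 CPM per kilobase, but this hung on the length used. Insr has 13746 bases of exon and a longest transcript of 9355 bases. With the longest transcript as the length, the ranges of Cnr1 and Insr overlapped, and Insr stood above Glp1r and Galr1. With that length or with library totals, 12 of 80 group means of the receptors moved by more than their SD. Adra2a followed at 1.96 ± 1.14 CPM per kilobase, and its range did not reach down to that of Cckar at 0.358 ± 0.139 CPM per kilobase. In NeuroD1 negative cells Insr led at 6.19 ± 2.01 CPM per kilobase, above the range of every other receptor, the next being Lepr at 0.847 ± 0.201 CPM per kilobase.

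In Glu positive cells Htr1d and Galr1 led at 16.4 ± 24.2 and 15.5 ± 11.6 CPM per kilobase (SD, n = 3), with Insr at 10.1 ± 4.91 and Cnr1 at 4.26 ± 4.20 CPM per kilobase. Without Glu_positive_5254 the mean of Htr1d was 2.50 CPM per kilobase and lay below Insr at 12.7, Galr1 at 10.9 and Cnr1 at 5.80 CPM per kilobase, an alternative added after the data were seen. No neighbours in the order over all 3 libraries were apart. Glp1r came seventh of the 10 in Glu positive cells at 0.322 ± 0.323 CPM per kilobase, against second in NeuroD1 positive cells. In Glu negative cells Insr led at 4.88 ± 0.745 CPM per kilobase (SD, n = 2), and Glp1r was next at 1.89 ± 1.38 CPM per kilobase.

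**Figure D4:**
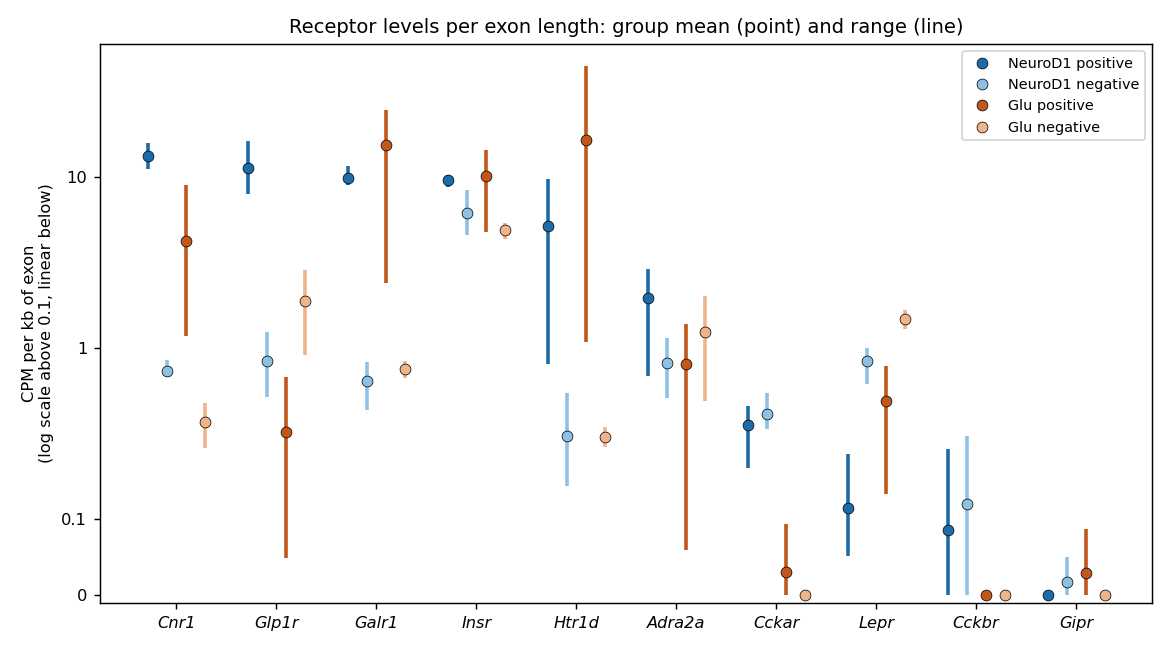
Level of each receptor per kilobase of exon (y axis, CPM per kilobase, log scale above 0.1 and linear below) as group mean (point) and range over libraries (line), ordered by the mean in NeuroD1 positive cells. Insr has means of 4.88 to 10.1 over the groups. The means of Cnr1, Galr1, Htr1d and Insr are lower in both groups of negative cells, for Insr by the smallest factor.

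Other genes of the same families were counted from 9 fixed lists with 119 genes. Medians below are over the tested genes of a list. A gene can pass the count filter through the group in which it is high, so these medians do not describe whole lists. As a background for calls in these lists, the NeuroD1 contrast called 6.57% of all genes tested as higher and 7.61% as lower. For the Glu contrast the shares were 4.22% and 2.41%. Of 14 further receptors and partners of the glucagon and secretin family, 6 had enough counts. Vipr1, a receptor for vasoactive intestinal peptide, fell by 2.19 ± 0.51 in NeuroD1 positive cells (adjusted p = 0.00659 in edgeR), though not without NeuroD1_negative_6362 (-1.75, adjusted p = 0.0545), and none passed in Glu positive cells. The median of the 6 was -0.22 in the NeuroD1 contrast and -0.84 in the Glu contrast, beside 0.02 and 0.12 over all genes tested. Of 24 other gut peptide receptors, 22 were in the table and 3 were tested, with medians of 3.52 in the NeuroD1 and 2.90 in the Glu contrast. Of these Grpr, the receptor for gastrin-releasing peptide, rose by 3.52 ± 0.54 in NeuroD1 positive cells (adjusted p = 0.000185 in edgeR) and by 3.38 ± 0.61 in Glu positive cells (adjusted p = 0.00235 in edgeR). Grpr had 33.1, 51.9 and 58.9 CPM in NeuroD1 positive against 2.64, 4.52 and 5.68 CPM in NeuroD1 negative cells, and 41.9, 43.8 and 90.2 CPM in Glu positive against 6.19 and 5.04 CPM in Glu negative cells. The second Grpr call was lost without Glu_negative_4665 (3.27, adjusted p = 0.0752).

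None of the 13 other serotonin receptors had enough counts to be tested, so Htr1d was the 1 member of its family that was. Of 8 other adrenergic receptors 2 were tested and neither passed in any comparison, their medians being 0.65 in the NeuroD1 and -2.84 in the Glu contrast. Of 10 muscarinic and dopamine receptors 3 were tested, and Chrm4, an inhibitory acetylcholine receptor, rose by 3.35 ± 1.02 in NeuroD1 positive cells (adjusted p = 0.033 in edgeR). That call was lost in 8 of 20 alternatives, the lowest value being 2.75 without NeuroD1_positive_6362 (adjusted p = 0.137), and none passed in Glu positive cells. The medians of the 3 were 2.77 in the NeuroD1 and 1.99 in the Glu contrast, and the rest of the list did not enter them. Among all genes tested, 6.57% were called higher in NeuroD1 positive and 4.22% in Glu positive cells.

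Of 9 cannabinoid receptors and endocannabinoid enzymes, all tested, 2 rose and 2 fell in NeuroD1 positive cells, with a median of -1.11, beside 6.57% and 7.61% of all genes. Dagla, an enzyme that makes the cannabinoid ligand 2-arachidonoylglycerol, rose by 2.44 ± 0.52 (adjusted p = 0.00372 in edgeR) and was also higher in NeuroD1 positive than in Glu positive cells by 2.32 ± 0.52 (adjusted p = 0.00977 in edgeR), though not without NeuroD1_positive_6361 (2.08, adjusted p = 0.0571). Cnr2, the cannabinoid receptor of immune cells, fell by 3.70 ± 0.93 in NeuroD1 positive cells (adjusted p = 0.011 in edgeR), and Gpr18 by 4.08 ± 0.98 (adjusted p = 0.00824 in edgeR). Without NeuroD1_positive_6362 both lost the call, at -3.19 (adjusted p = 0.0643) and -3.68 (adjusted p = 0.051), and Cnr2 lost it without NeuroD1_negative_6360 too (-3.19, adjusted p = 0.064). T cell and B cell markers, which mark cells known to carry these receptors, fell in the same comparison in 8 of 8 and 6 of 6 cases. Over all genes tested, 7.61% were called lower there. The part of these cells in these results was not tested. In Glu positive cells 1 of the 9 rose and 1 fell, with a median of -0.23, beside 4.22% and 2.41% of all genes. Gpr18 fell by 3.26 ± 0.88 (adjusted p = 0.0322 in edgeR), a call lost in 5 alternatives, 4 of which left out a Glu library and 1 of which fitted the Glu libraries alone, with values of -3.29 to -2.99, and Napepld rose by 2.13 ± 0.63 (adjusted p = 0.0479 in edgeR), a call lost in 16 of 20 alternatives.

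Of 12 insulin receptor relatives and adaptors, 9 were tested, and 3 rose in NeuroD1 positive cells and 2 in Glu positive cells, with medians of 0.70 and -0.49. Over all genes tested, 6.57% and 4.22% were called higher in these comparisons. Irs1, an adaptor that carries the insulin receptor's signal, had 41.9, 115 and 56.4 CPM in NeuroD1 positive against 4.23, 5.02 and 6.11 CPM in NeuroD1 negative cells. It rose by 3.80 ± 0.60 (adjusted p = 0.000284 in edgeR), and by 2.54 ± 0.65 in Glu positive cells (adjusted p = 0.0253 in edgeR). The call in Glu positive cells was lost without Glu_negative_5254 (2.63, adjusted p = 0.185), Glu_negative_4665 (2.50, adjusted p = 0.222) or Glu_positive_4665 (2.23, adjusted p = 0.0525), in limma voom (2.37, adjusted p = 0.0575), with the Glu libraries alone (2.50, adjusted p = 0.114) and with a replicate block (1.98, adjusted p = 0.108). Irs4, a related adaptor, had 25.7, 68.3 and 98.8 CPM in NeuroD1 positive cells and 0 counts in the 3 Glu positive libraries, at least 313-fold higher against a floor of 3 counts over the group. It rose by 3.26 ± 0.73 over NeuroD1 negative cells (adjusted p = 0.00612 in edgeR). Grb14, an inhibitor of the insulin receptor, rose by 4.84 ± 0.97 in Glu positive cells (adjusted p = 0.00553 in edgeR), but not without Glu_negative_5254 (5.34, adjusted p = 0.056) or Glu_negative_4665 (4.38, adjusted p = 0.116). Igf2r, a receptor that clears insulin-like growth factor 2, rose by 1.37 ± 0.34 in NeuroD1 positive cells (adjusted p = 0.00928 in edgeR), but not with library totals (1.06, adjusted p = 0.0892).

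Of 10 relatives and signalling partners of the leptin receptor, all tested, 2 rose and 1 fell in NeuroD1 positive cells, with a median of -0.19, beside 6.57% of all genes called higher and 7.61% lower. Il6ra, the interleukin 6 receptor, rose by 3.73 ± 0.65 (adjusted p = 0.000624 in edgeR), while Osmr, the oncostatin M receptor, fell by 3.71 ± 0.92 (adjusted p = 0.00996 in edgeR), a call lost without NeuroD1_negative_6360 (-3.01, adjusted p = 0.0797). Leprotl1, a homologue of the leptin receptor overlapping transcript, rose by 1.54 ± 0.40 (adjusted p = 0.0132 in edgeR) and lost the call in 4 alternatives, with values of 1.16 to 1.43. None of the 10 passed in Glu positive cells, where their median was 0.32. Jak2, the kinase bound to the leptin receptor, differed by -1.51 ± 0.45 between NeuroD1 positive and Glu positive cells (adjusted p = 0.0429 in edgeR), a call lost in 10 of 19 alternatives and at -0.84 without Glu_positive_5254.

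Of 19 ligands and transmitter enzymes, 12 were tested, and 8 rose in NeuroD1 positive and 7 in Glu positive cells, with medians of 3.45 and 2.25. The shares called higher over all genes tested were 6.57% and 4.22%. The 7 include Gcg, whose reporter marks Glu positive cells, so its rise there follows from the sort. In NeuroD1 positive cells Cck rose by 6.17 ± 0.46 and Gip by 5.81 ± 0.69. In Glu positive cells Cck rose by 4.94 ± 0.52, Gcg by 3.71 ± 0.50 and Gip by 3.61 ± 0.73, the last not without Glu_negative_5254 (3.57, adjusted p = 0.0895) or Glu_negative_4665 (3.81, adjusted p = 0.0802). Th, the enzyme that starts catecholamine synthesis, had 47.4, 14.5 and 47.3 CPM in NeuroD1 positive against 1.23, 1.51 and 1.31 CPM in NeuroD1 negative cells, and rose by 4.74 ± 0.95 (adjusted p = 0.00216 in edgeR). Its ratio of NeuroD1 positive to Glu positive cells was 256 on 2 counts in Glu positive cells, with an exact 95% counting interval of 70.4 to 2120. Slc18a2, which loads monoamines into vesicles, was higher in NeuroD1 positive than in Glu positive cells by 4.44 ± 0.58 (adjusted p = 0.00013 in edgeR). Tph1, the enzyme that starts serotonin synthesis, was higher in NeuroD1 negative than in Glu negative cells by 3.24 ± 0.58 (adjusted p = 0.00968 in edgeR), though not without Glu_negative_5254 (2.82, adjusted p = 0.327) or Glu_negative_4665 (3.86, adjusted p = 0.0947) or in limma voom (3.25, adjusted p = 0.109). Gcg differed by -2.00 ± 0.42 between NeuroD1 negative and Glu negative cells (adjusted p = 0.0321 in edgeR), a call lost in 8 alternatives with values of -2.09 to -1.76.

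Markers of enteric neurons, cells that also carry Galr1, Cnr1 and Htr1d, were low throughout. The 7 markers summed to 16.5 to 26.7 CPM in NeuroD1 positive, 17.1 to 23.3 CPM in NeuroD1 negative, 3.64 to 8.96 CPM in Glu positive and 1.33 to 2.52 CPM in Glu negative cells. Of the 7, 2, 1, 3 and 4 were at 0 in these groups, 2 had enough counts to be tested and neither passed in any comparison. The sums overlapped between the NeuroD1 gates, where Nos1 made up much of them, but Elavl4 did not overlap there (3.31 to 6.10 CPM in NeuroD1 positive and 0.881 to 2.01 CPM in NeuroD1 negative cells). In the GluVenus strain the sums were higher in all positive than in both negative libraries, as were Galr1, Cnr1 and Htr1d. The part of enteric neurons in these results was not tested.

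The genes whose pattern was most like that of each receptor were ranked by Pearson r of log2(CPM + 1) over the 11 libraries, among 10336 genes with a mean of at least 5 CPM. These values describe libraries that share their gates, strains and depth. Cnr1 was most like Nfasc (r = 0.99), Gip (0.99) and Ap3b2 (0.98). Galr1 was most like Cul3 (0.98), Hk2 (0.98) and Spred3 (0.97), and Htr1d most like Spast (0.97), Wac (0.95) and Zfp266 (0.95). Glp1r came closest to Fmo2, Calcoco1 and Arg1 (0.94 each), Insr to Fam171a1 (0.95) and Zfyve9 (0.95), and Adra2a to Spon1 (0.86), Sumo2 (0.84) and Sprr1a (0.84). Among the receptors themselves r was 0.87 between Galr1 and Htr1d, 0.76 between Galr1 and Cnr1 and -0.93 between Cnr1 and Lepr, whereas Glp1r reached 0.20 with Galr1 and 0.44 with Cnr1.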

How the data were processed

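RNA was measured in sorted duodenal cells of 2 mouse strains in 11 libraries; input was 2 ng of RNA, amplified before library making, per the labels' protocols. The authors deposited 1 table of estimated counts per Ensembl gene, not scaled, with values that are not whole in 848 genes, and these were rounded to whole numbers. The submitters' processing notes name GRCm38, TopHat2 2.1.0, CASAVA and Cufflinks 2.2.1. How reads were counted, with which annotation and whether by strand, is not given in the sources used here. Symbols, positions and exon lengths came from GENCODE vM21 on GRCm38, in which no other gene overlaps an exon of the 10 receptors. Symbols were found for 36341 of 38283 genes, and 2 listed genes, Galr3 and Mlnr, had no row.

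Counts were tested with the quasi-likelihood test of edgeR 4.0.16 (R 4.3.3) after TMM scaling; filterByExpr left 14332 genes, and 1 model held the means of the 4 groups. Alternatives were DESeq2 1.42.0, limma voom 3.58.1, RLE scaling, library totals, no filter, a stricter filter (at least 1 CPM in every library of a group and 50 counts), the compared groups alone, a replicate block, a table without mt-Rnr1 and mt-Rnr2, and each library left out. The SE is the fold change divided by the square root of F. Groups came from the sample titles. The fit was tested on simulated counts with 200 changed genes. Replicates differed by more than sampling noise (chi-square per degree of freedom of 15.3 or more), so none was merged. Intervals and the floor of 3 counts over a group cover counting error only: RNA was amplified, and the labels name no molecular identifiers.

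The receptors and gene lists were chosen with earlier results of these data known. The text names all 10 receptors, of each list up to 3 called genes by size of change in each comparison, and the 3 genes most like each receptor, of which 1 is not reported here. Genes of the markers and lists named for their levels (Socs3, Gal, Gast and Cck beside their receptors) were chosen after their values were seen.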

Additional observations from a re-analysis of the deposited data

Results flagged for a closer look

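The positive against negative log2 fold change of Glp1r was larger in the NeuroD1 strain than in the GluVenus strain by 6.35 ± 1.07 (adjusted p = 0.0137 in edgeR), and this test of the difference between strains is what brought it here. It was 3.70 in NeuroD1 cells and -2.64 in Glu cells, and the second did not pass by itself (adjusted p = 0.0516 in edgeR). The call for the difference was lost in 4 of 19 alternatives, which gave 5.31 to 7.65. The order of the libraries is seen in the same counts that the test used. Each NeuroD1 positive library lay above each NeuroD1 negative one, and each Glu positive library lay below both Glu negative ones. The part of immune cells in the Glu negative libraries was not tested.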

How the results depend on the processing

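Of 676 alternative values for 35 pairs of a receptor and a comparison, 16 changed sign, none of them among the 9 called pairs, and 18 calls were lost in 5 called pairs, while 21 values of uncalled pairs passed. For the related genes, 72 calls were lost in 17 of 32 pairs, with 0 sign changes in 630 values. The causes were not tested. Sign changes were as follows. In Glu positive against Glu negative cells Adra2a was 0.63 without Glu_negative_5254, and with single libraries left out it spanned -1.38 to 0.63. The difference between the contrasts was 0.10 for Insr with the replicate block, 0.02 for Galr1 and 1.04 for Htr1d without Glu_positive_5254, the lowest values with other libraries left out being -0.98 and -2.51. Between NeuroD1 positive and Glu positive cells Insr was 0.07 in limma voom, 0.01 without NeuroD1_positive_6361, 0.26 without Glu_positive_5160 and 0.01 without Glu_positive_4665, and Htr1d was 1.03 without Glu_positive_5254; leaving out single libraries gave lowest values of -0.40 and -2.52, and library totals put Insr at -0.48. Between NeuroD1 negative and Glu negative cells Insr was -0.06 with library totals and Htr1d 0.00 in DESeq2; with 1 library left out Htr1d spanned -0.57 to 0.25, Galr1 -0.45 to 0.01 and Adra2a -1.32 to 0.68.

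Counts of genes called depended on the tool. For Glu positive against Glu negative cells there were 951, against 1551 without a filter, 1530 in DESeq2 and 340 with these groups alone. For the difference of contrasts there were 16, against 25 with library totals, 338 without a filter, 176 in DESeq2 and 8 in limma voom. For NeuroD1 positive against Glu positive cells there were 1165, against 1902 without a filter, 1826 in DESeq2, 646 in limma voom and 565 with these groups alone. For the negatives there were 70, against 245 without a filter, 176 in DESeq2 and 123 with these groups alone. Leaving out single libraries gave 1301 to 2757 genes for the NeuroD1 contrast (2031 with all), 187 to 1126 for the Glu contrast, 5 to 52 for their difference, 569 to 2182 for the positives and 27 to 133 for the negatives, and 3 to 5, 0 to 4, 0 to 1, 1 to 2 and 0 to 0 receptors in these comparisons. Receptors called between the positives were 2 in DESeq2, limma voom and without a filter. Library totals put the median of all genes at -0.28, -0.19, -0.18, -0.51 and -0.39 in these 5 comparisons, and the share of higher calls at 31.5%, 42.4%, 56%, 19.3% and 54.8%, against 46.3%, 63.6%, 81.2%, 39.1% and 74.3% with TMM. For the difference of contrasts the share of genes with the larger value in the NeuroD1 strain was 23.1% without a filter, 35.2% in DESeq2 and 40.4% without Glu_positive_4665, and between the positives limma voom put the share of higher calls at 62.4%.

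Same-numbered positive and negative libraries correlated at 0.00798 to 0.042 in their deviations, and those with different numbers at -0.0412 to 0.0193. Each positive library with a same-numbered negative one correlated best with it, except NeuroD1_positive_6361. Deviations from means of 2 or 3 libraries are tied to each other, so these values cannot decide whether the numbers are pairs. The main fit did not take them as pairs. With the replicate block 1956 genes and 4 receptors were called in the NeuroD1 contrast, 707 genes and 3 receptors in the Glu contrast, and 21 genes and 0 receptors for the difference. Depth limited what could be said of Gipr, Cckar and Cckbr, and the Glu contrast rests on 2 negative libraries.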
